A study of Anas platyrhynchos with 11 samples.

Results

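Inward rectifier potassium channels were examined as 9 genes, KCNJ2, KCNJ3, KCNJ4, KCNJ5, KCNJ6, KCNJ8, KCNJ13, KCNJ15 and KCNJ16. They were taken by gene name from a table of 16823 duck genes, in which all 9 were present and all 9 passed the filter on low counts, as did 14638 genes in all. The table held 11 KCNJ genes, and the other 2, KCNJ1 and KCNJ11, are described as companions. The tissue of interest was the Meissner corpuscle of the duck (Anas platyrhynchos), a touch end organ in which a sensory axon lies between lamellar cells. Its 5 libraries were each made from 2 to 10 corpuscles drawn by hand into a pipette and pooled. They were set against 6 libraries of bill skin cells, collected near the corpuscles but free of them. Besides tissue and library kit, the labels give RNA of 63 to 323 pg per µl and RNA integrity numbers of 6.1 to 8 for corpuscle samples. No such values are given for skin, and the labels give no strain, sex or age. They state that the replicates came from 3 independent skin isolations, but not which library came from which, so p-values measure the spread between libraries alone. Corpuscle RNA went into a NEBNext low-input kit and skin RNA into a Kapa mRNA kit, and the effects of kit and tissue therefore cannot be told apart.

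Inward rectifiers are tetrameric potassium channels that pass current more readily into the cell than out of it, because polyamines and magnesium block the pore from inside. The strong rectifiers of the Kir2 group hold the resting potential of neurons, muscle and endothelium near the potassium equilibrium. The Kir3 group, also called GIRK channels, opens when G protein beta-gamma subunits are released by inhibitory receptors. Kir6 subunits join sulfonylurea receptors to form channels closed by ATP, and the remaining subunits mostly serve potassium transport in epithelia and glia. All of them need the membrane lipid PIP2 to open.

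Total counts ran from 5766279 to 11886808 in corpuscle libraries and from 13263776 to 20925841 in skin libraries. Within a gene, levels are given in CPM, the read count relative to the scaled size of its library. Between genes they are given as the deposited FPKM, which is also per length. A floor of 3 reads equalled 0.266 to 0.476 CPM in corpuscle libraries and 0.135 to 0.227 CPM in skin libraries, for counting error only. Libraries of each tissue also split along principal component 2, which held 12.5% of the variance. Corpuscles 4 and 5 (-124 and -35.5) and skin 5 and 6 (-15.2 and -19.3) had negative scores, and are called the negative-score subset here. That split was taken from these same counts, and no label sets these libraries apart. A fit within it has only 2 libraries of each tissue, so a gene can fail to pass there at an unchanged fold change. Corpuscles 1 to 3 lay at 53.2 to 59.5 and skin 1 to 4 at 2.61 to 10.8. Markers of Merkel cells summed to 2906 to 16424 FPKM in corpuscles and 264 to 573 FPKM in skin, and those of sensory neurons to 240 to 1249 FPKM in corpuscles and 72.1 to 98.7 FPKM in skin. The Merkel sum was carried mainly by CHGB, KRT20 and CHGA, with corpuscle means of 6854, 1662 and 1082 FPKM. Of the 12 Merkel genes tested 10 rose and 0 fell, and PIEZO2 and KRT8 did not pass. Of the 15 sensory neuron genes tested 9 rose and 2 fell (MAPT and PRPH), and their corpuscle sum was mostly UCHL1. The Schwann cell list summed to 464 to 749 FPKM in corpuscles and 767 to 1281 FPKM in skin, with S100B at 0 in every library. Of its 10 genes tested 5 fell and 0 rose. PMP22 carried most of the corpuscle sum (mean 398 FPKM, against 494 FPKM in skin) and did not pass. SOX10 (69.1 against 45.8 FPKM), NGFR (59.6 against 33.9 FPKM) and GFRA3 had higher means in corpuscles but did not pass. Keratinocyte markers, 8 of 15 of which were in the table, summed to 30.5 to 66.8 FPKM in corpuscles and 82.3 to 311 FPKM in skin. Low levels in corpuscles need care: 29 genes of unrelated organs (germ line, pituitary, retina and liver) had a median of 1.59 FPKM and a 95th percentile of 9.01 FPKM there. In skin their median was 0.136 FPKM and their 95th percentile 9.52 FPKM, with APOA1 highest at 111 FPKM. Among the 9 channel genes KCNJ2 and KCNJ5 alone exceeded the corpuscle 95th percentile by their mean in corpuscles, and 5 exceeded the corpuscle median. By their mean in skin 0 of the 9 exceeded the skin 95th percentile, and 7 exceeded the skin median. In bulk samples fewer cells of a type and less RNA per cell cannot be told apart.

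Most inward rectifier genes were higher in corpuscles than in skin. By edgeR's quasi-likelihood test at a Benjamini-Hochberg adjusted p of 0.05, 6 of the 9 rose (KCNJ2, KCNJ3, KCNJ4, KCNJ5, KCNJ6 and KCNJ13), against 33.0% of all genes tested. KCNJ8 and KCNJ15 fell, 2 of 9 against 23.5% of all genes, and KCNJ16 did not pass. In either direction 8 of 9 passed, against 56.4% of all genes. KCNJ3, KCNJ4 and KCNJ6 had entered the test through their corpuscle libraries alone, with skin at most 0.687, 0.662 and 0.180 CPM. KCNJ8 and KCNJ15, with corpuscles down to 0.444 and 0.360 CPM, needed skin libraries to pass the filter on low counts. With no filter on low counts 6 rose and 2 fell as well. The groups did not overlap for 7 of the 9, against 41.3% of all genes. In 5 of the 9 every corpuscle library lay above every skin library, which held for 22.3% of all genes, and in 2 of the 9 every one lay below, against 19.0%. The median log2 fold change of the 9 genes was 2.31, and that of all genes tested was 0.18. Genes of the unrelated organs gave the same share higher: of the 21 that passed the filter, 14 (66.7%) rose and 3 fell, with a median log2 fold change of 2.45. Several of these had also entered the test through corpuscle libraries alone, such as FGA, PRL, TSHB, POU1F1 and DAZL, with skin at most 0.260 CPM. The share of this list is therefore no neutral baseline. When corpuscles 4 and 5 were left out, 6 channel genes rose and 2 fell as well, but the share of all genes called was not counted for that fit. In the negative-score subset 4 of the 9 rose and 0 fell by edgeR, against 24.5% and 9.82% of 15418 genes, and 1 was lower at an unadjusted p under 0.05. Of 48 other potassium channel genes tested, 30 rose and 3 fell, with a median log2 fold change of 1.71.

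**Figure D1:**
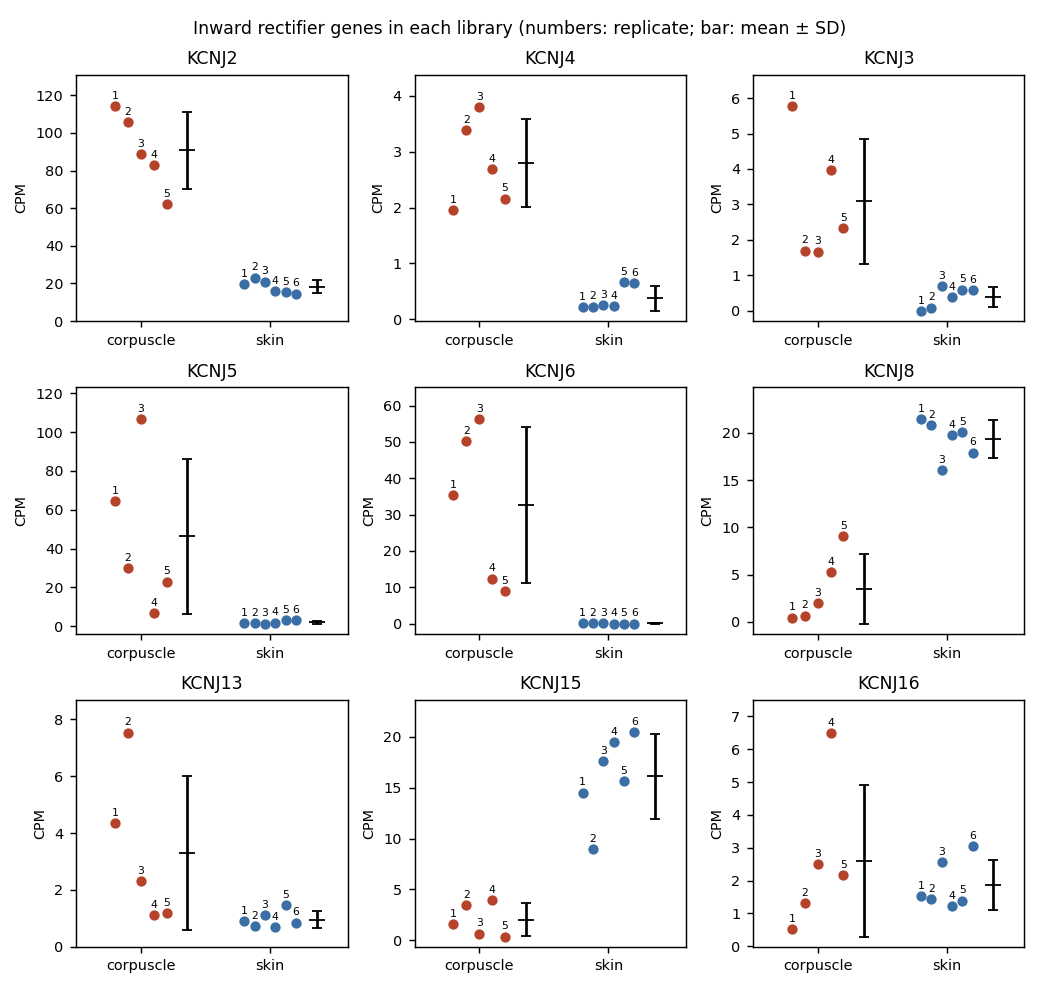
CPM of each of the 9 genes in the 5 corpuscle libraries and the 6 skin libraries, with replicate numbers beside the points and bars for mean ± SD. KCNJ2, KCNJ3, KCNJ4, KCNJ5 and KCNJ6 lay higher in every corpuscle library than in any skin library, KCNJ8 and KCNJ15 lay lower, and KCNJ13 and KCNJ16 overlapped.

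**Figure D2:**
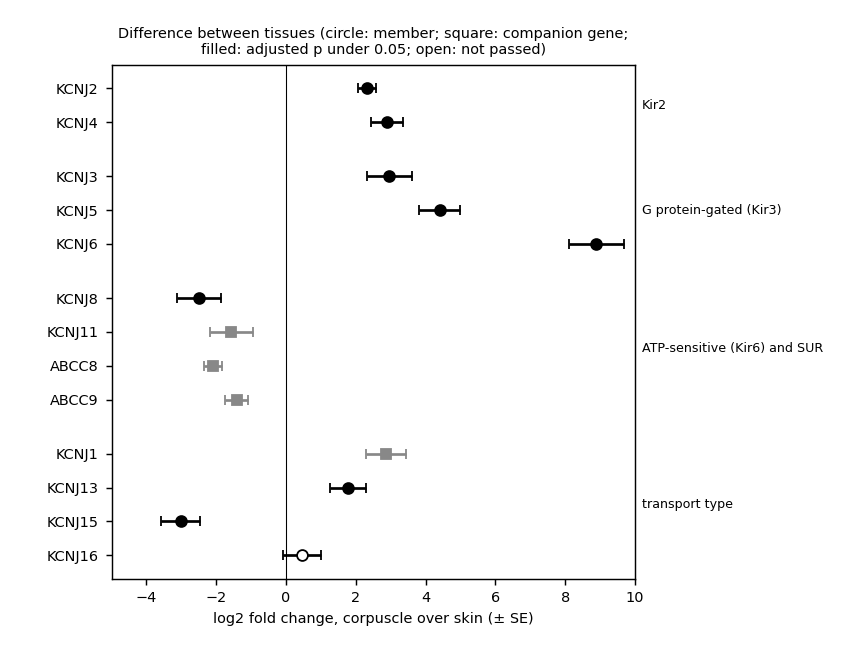
Log2 fold change of corpuscle over skin with its SE for the 9 genes (circles) and 4 companions (squares), grouped by channel type. The values ran from -3.02 for KCNJ15 to 8.89 for KCNJ6, and KCNJ16 alone is drawn open because it did not pass.

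KCNJ2, which encodes the strong rectifier Kir2.1 of resting potential, was the steadiest of the group in corpuscles. It was at 114, 106, 88.9, 82.8 and 62.2 CPM in corpuscles 1 to 5, against 14.5 (lowest), 17.7 (median) and 23.1 CPM (highest) in skin. The lowest corpuscle library thus lay far above the highest skin library. The means were 90.7 ± 20.3 CPM in corpuscles (SD, n = 5) and 18.2 ± 3.47 CPM in skin (n = 6), and the coefficients of variation 22.4% and 19.0%. The log2 fold change was 2.31 ± 0.26 (SE, edgeR adjusted p = 3.55e-06), a 4.97-fold difference. It was 2.32 in the negative-score subset (adjusted p = 0.0197), and it passed under all 24 alternatives tried. The genes with the closest profiles over the 11 libraries were PIM3, a kinase, TFAP2A, a transcription factor of neural crest and skin, and GLOD4. Their root mean square differences from KCNJ2 were 0.21, 0.24 and 0.27 on the log2 CPM scale.

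KCNJ4 encodes Kir2.3, another strong rectifier, known from neurons of the forebrain and from heart in mammals. It was low in both tissues, at 1.95, 3.39, 3.80, 2.695 and 2.16 CPM in corpuscles 1 to 5. Skin had 0.209 (lowest), 0.239 (median) and 0.662 CPM (highest), or 35 reads over all 6 libraries, so the skin libraries were near the floor and below all corpuscles. Its log2 fold change was 2.89 ± 0.46 (edgeR adjusted p = 8.44e-05), and 1.92 in the negative-score subset (adjusted p = 0.0335). At 0.908 FPKM in corpuscles KCNJ4 lay under the median of genes of unrelated organs. Its closest profiles were those of TOX2, FRMD7 and MRPL50, at 0.30 to 0.31.

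All 3 G protein-gated genes among the 9 rose. KCNJ6 encodes GIRK2, a subunit that can form channels by itself and is abundant in brain. It was at 35.4, 50.3, 56.3, 12.4 and 9.01 CPM in corpuscles 1 to 5, with 1718 reads in all. Skin had 6 reads in all, 1 in skin 1, 4 in skin 2, 1 in skin 3 and 0 in skin 4 to 6. The tissues were therefore far apart, but corpuscles 4 and 5 held much less than corpuscles 1 to 3. The log2 fold change of 8.89 ± 0.79 (edgeR adjusted p = 6.07e-07) rests on those 6 reads for its size, and without skin 2 it was 9.79. In FPKM the level was 3.71 ± 2.45 in corpuscles, which lay between the median and the 95th percentile of the unrelated-organ genes. NXPH1, a neurexin ligand, SLC10A2, a bile acid transporter, and TRPC7, a cation channel, had the closest profiles, at 0.60 to 0.66. Their skin means of 0.0805, 0 and 0.0243 CPM were under the floor, as was that of KCNJ6. The likeness thus rests largely on near absence from skin.

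KCNJ5 encodes GIRK4, known from the atrium of the heart, where it pairs with GIRK1 to carry the muscarinic current. It varied most in absolute level, at 64.6, 30.1, 107, 6.98 and 23.1 CPM in corpuscles 1 to 5. Skin had 1.37 (lowest), 1.86 (median) and 3.26 CPM (highest). Corpuscle 4 was the lowest of its group but still lay above every skin library. This gave a log2 fold change of 4.41 ± 0.59 (edgeR adjusted p = 1.76e-05), or 21.2-fold. In the negative-score subset it was 2.38 and did not pass (adjusted p = 0.0792), and without corpuscles 4 and 5 it was 4.94. The closest profiles were those of TMEM254, NHLH1, a neuronal transcription factor, and CD4, at 0.44 to 0.49.

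KCNJ3 encodes GIRK1, which reaches the membrane only together with another GIRK subunit. It was at 5.77, 1.70, 1.67, 3.96 and 2.34 CPM in corpuscles 1 to 5. Skin had 0 (lowest), 0.483 (median) and 0.687 CPM (highest), with 36 reads in all. No library overlapped, and the log2 fold change was 2.97 ± 0.66 (edgeR adjusted p = 0.00131). Its corpuscle mean of 1.73 FPKM lay just above the unrelated-organ median of 1.59 FPKM. Corpuscles 2, 3 and 5 (0.951, 0.938 and 1.31 FPKM) lay under that median, and corpuscles 1 and 4 (3.31 and 2.17 FPKM) above it. The highest corpuscle for KCNJ3 was corpuscle 1, whereas KCNJ5 and KCNJ6 were highest in corpuscle 3. Its closest profiles were those of TCFL5, GABRA2, a GABA receptor subunit, and TEKT3, at 0.48 to 0.55.

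Per length, the 3 subunits had unequal levels in corpuscles, at 12.0 ± 10.4 FPKM for KCNJ5, 3.71 ± 2.45 FPKM for KCNJ6 and 1.73 ± 1.01 FPKM for KCNJ3. KCNJ5 exceeded KCNJ6 in 5 of 5 corpuscle libraries. That order depends on gene lengths of 3755 bp for KCNJ5 and 8591 bp for KCNJ6. By reads KCNJ6 was the higher in corpuscle 2 (534 against 320) and corpuscle 4 (78 against 44). How evenly reads covered these lengths was not tested. The ratio of KCNJ6 to KCNJ5 in FPKM was 0.24, 0.73, 0.23, 0.77 and 0.17 in corpuscles 1 to 5, and at most 0.049 in skin. Corpuscles 2 and 4 thus had the highest ratios, although they had different levels of both genes.

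KCNJ8, which encodes the ATP-sensitive subunit Kir6.1 of vascular smooth muscle and pericytes, was lower in corpuscles. It was at 0.444, 0.659, 1.95, 5.23 and 9.10 CPM in corpuscles 1 to 5, against 16.0 (lowest), 19.95 (median) and 21.5 CPM (highest) in skin. The skin libraries were close together, with a coefficient of variation of 10.4%, while in corpuscles it was 106%. The log2 fold change was -2.48 ± 0.63 (edgeR adjusted p = 0.00360). It was -3.28 without corpuscle 5, -4.24 without corpuscles 4 and 5, and -1.30 in the negative-score subset, where it did not pass (adjusted p = 0.140). Pericyte and smooth muscle markers were lower in corpuscles too, with 8 of 11 falling and 1 rising, and sums of 56.0 to 146 FPKM in corpuscles and 341 to 504 FPKM in skin. Of all genes 23.5% fell. Endothelial (13 lower and 0 higher of 15), fibroblast (8 and 0 of 11) and keratinocyte lists (5 and 1 of 8) were mostly lower as well. In corpuscles 1 to 5 the pericyte and smooth muscle sum was at 98.8%, 72.6%, 38.4%, 100% and 75.2% of its highest corpuscle library. KCNJ8 was at 5.01%, 7.29%, 21.6%, 56.4% and 100%. None of the pericyte and smooth muscle markers was at 0 in a whole tissue. The part of these cell types in the difference of KCNJ8 was not tested. AVPI1, MMP23B, a metalloproteinase, and PRKCI, a kinase of cell polarity, had the closest profiles, at 0.49 to 0.50.

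The partners of the ATP-sensitive channels were lower in corpuscles as well. ABCC9, the sulfonylurea receptor SUR2 that pairs with Kir6.1 in vessels, averaged 13.4 ± 4.64 CPM in corpuscles, against 35.7 ± 7.45 CPM in skin. Its log2 fold change was -1.42 ± 0.33 (edgeR adjusted p = 0.00190), and it missed the threshold in the negative-score subset (-1.04, adjusted p = 0.133). ABCC8, the receptor SUR1 of pancreatic beta cells and neurons, fell by 2.09 ± 0.26 on the log2 scale (edgeR adjusted p = 9.26e-06), to 48.3 ± 19.1 CPM in corpuscles, against 205 ± 20.7 CPM in skin. KCNJ11, which encodes the Kir6.2 pore that joins SUR1, averaged 1.42 ± 1.25 CPM in corpuscles, against 4.11 ± 2.13 CPM in skin, with overlap. Its call was weak (log2 fold change -1.56 ± 0.61, edgeR adjusted p = 0.0398). It was lost without corpuscle 1 (-1.31, adjusted p = 0.0707), corpuscle 2 (-1.39, adjusted p = 0.0842), corpuscle 3 (-1.38, adjusted p = 0.0873), skin 2 (-1.31, adjusted p = 0.0953), skin 3 (-1.57, adjusted p = 0.0565) or skin 4 (-1.42, adjusted p = 0.0797). It was also lost with upper-quartile factors (-1.37, adjusted p = 0.0764) and after thinning to the smallest library (-1.31, adjusted p = 0.0694), and in the negative-score subset the sign turned (0.305, adjusted p = 0.703). ABCC8 exceeded KCNJ11 per length in every library, the ratio in FPKM having a median of 18.4 in corpuscles and 23.3 in skin. In corpuscles that ratio ran from 4.21 to 106. KCNJ11 had only 64 reads over the corpuscle libraries, down to 0.266 CPM, which is at the floor. For ABCC9 over KCNJ8 the medians were 1.70 in corpuscles and 0.95 in skin. The ratio reached 13.9 in corpuscle 1 and 9.36 in corpuscle 2, which held only 5 and 7 KCNJ8 reads, near the floor. It was 0.96 to 1.70 in corpuscles 3 to 5.

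KCNJ15, which encodes Kir4.2 of kidney and other epithelia, also fell. It was at 1.60, 3.49, 0.649, 3.96 and 0.360 CPM in corpuscles 1 to 5, against 8.96 (lowest), 16.6 (median) and 20.4 CPM (highest) in skin. The groups did not overlap, and the log2 fold change was -3.02 ± 0.56 (edgeR adjusted p = 0.000326), so that skin had 8.12 times the corpuscle level. In the negative-score subset, with fewer libraries, it was of like size at -3.16 but did not pass (edgeR adjusted p = 0.0776). Endothelial markers, ERG among them, gave 13 lower and 0 higher of 15 by edgeR, with sums of 21.7 to 96.5 FPKM in corpuscles and 319 to 453 FPKM in skin. Other lists were mostly lower too, with 5 lower and 1 higher of 8 for keratinocytes and 8 lower and 0 higher of 11 for fibroblasts. In corpuscles 1 to 5 the endothelial sum was at 85.9%, 32.9%, 22.5%, 72.9% and 100% of its highest corpuscle library. KCNJ15 was at 42.3%, 90.2%, 16.8%, 100% and 9.27% of its own highest level there, the last from 4 reads, near the floor. The part of these cell types in the difference of KCNJ15 was not tested. The closest profiles to KCNJ15 were those of PRPF19, a splicing factor, CP, the copper protein ceruloplasmin, and LRRC32, at 0.38 to 0.54.

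KCNJ13 encodes Kir7.1, a weakly rectifying channel of retinal pigment epithelium and choroid plexus. It was at 4.35, 7.54, 2.32, 1.11 and 1.17 CPM in corpuscles 1 to 5, against 0.682 (lowest), 0.877 (median) and 1.46 CPM (highest) in skin. Corpuscles 1 to 3 lay above all skin libraries, but corpuscles 4 and 5 lay among them. Its log2 fold change was 1.79 ± 0.52 (edgeR adjusted p = 0.00820). In the negative-score subset it was 0.065 and did not pass (adjusted p = 0.937). ARFGEF3, MRPL38 and C15H7orf26 had the closest profiles, at 0.30 to 0.37.

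KCNJ16 encodes Kir5.1, which forms channels mainly by pairing with Kir4 subunits in kidney and glia. It was at 0.533, 1.32, 2.50, 6.50 and 2.16 CPM in corpuscles 1 to 5, against 1.21 (lowest), 1.49 (median) and 3.06 CPM (highest) in skin. The groups overlapped, with corpuscle 1 below all skin libraries and corpuscle 4 above them. The log2 fold change of 0.45 ± 0.54 did not pass (edgeR adjusted p = 0.499), and it was -0.20 without corpuscle 4 (adjusted p = 0.731). TAF1C, LIMK1 and XYLT2 had the closest profiles, at 0.32 to 0.38.

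KCNJ1, which encodes the kidney channel ROMK, averaged 0.910 ± 0.181 CPM in corpuscles, against 0.108 ± 0.109 CPM in skin. It passed (log2 fold change 2.87 ± 0.58, edgeR adjusted p = 0.000636) on 46 reads in corpuscles and 12 reads in skin. With skin at most 0.315 CPM and a skin mean under the floor, it had entered the test through corpuscle libraries alone. It was tested in only 16 of the 24 alternatives and passed in those. At 0.479 FPKM in corpuscles it lay under the median of genes of unrelated organs.

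Several of these genes lie side by side in the RefSeq gene table of the Pekin duck. KCNJ2 lies next to KCNJ16, KCNJ6 next to KCNJ15, KCNJ8 next to ABCC9 and KCNJ5 next to KCNJ1. The members of these pairs did not all go one way: KCNJ2 rose and KCNJ16 did not pass, KCNJ6 rose and KCNJ15 fell, KCNJ8 and ABCC9 both fell, and KCNJ5 and KCNJ1 both rose. Beyond the pairs, DYRK1A, a kinase beside KCNJ6, rose by 1.56 ± 0.26 (edgeR adjusted p = 0.000133), and ERG, an endothelial transcription factor beside KCNJ15, fell by 3.14 ± 0.36 (adjusted p = 4.29e-06). MAP2K6, a kinase beside KCNJ16, rose by 1.22 ± 0.25 (edgeR adjusted p = 0.000744), and ARHGAP32, beside KCNJ5, fell by 2.07 ± 0.35 (adjusted p = 0.000152). Of the genes on either side of KCNJ13, GIGYF2 fell by 1.58 ± 0.25 (edgeR adjusted p = 6.71e-05) and SNORC rose by 2.13 ± 0.65 (adjusted p = 0.0113). LDHB beside KCNJ8 (0.12 ± 0.18), NR4A2 (-0.04 ± 0.47) and GALNT13 (0.78 ± 0.42) beside KCNJ3, and KDELR3 beside KCNJ4 (-0.27 ± 0.30) did not pass. On the other side of KCNJ4, a gene known by a locus identifier alone rose by 7.56 ± 0.74 (edgeR adjusted p = 1.17e-06). Its mean was 3.78 CPM in corpuscles and 0.011 CPM in skin, which is under the floor.

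The order of the levels per length differed between the tissues. In corpuscles KCNJ2 was highest at 15.5 ± 3.65 FPKM, followed by KCNJ5, KCNJ6 and KCNJ13 (2.67 ± 2.20 FPKM). KCNJ3, KCNJ4, KCNJ15, KCNJ8 and KCNJ16 came after these, the last at 0.532 ± 0.463 FPKM. The ranges of all neighbours in that order overlapped, and KCNJ2 exceeded KCNJ5 in 4 of 5 libraries, with corpuscle 3 the exception. In skin KCNJ15 was highest at 7.68 ± 1.98 FPKM, followed by KCNJ8 at 5.13 ± 0.54 FPKM, which it exceeded in 5 of 6 libraries. KCNJ2 came next in skin at 3.28 ± 0.62 FPKM, below KCNJ8 and above KCNJ13 with no overlap of ranges. Of the lower steps in skin, from KCNJ13 to KCNJ4, the neighbours overlapped, and KCNJ6 was last at 0.0062 ± 0.0084 FPKM, apart from KCNJ4.

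The summed FPKM of the 9 genes was 49.6, 41.7, 54.6, 25.2 and 23.4 in corpuscles 1 to 5, and 15.5 to 19.9 in skin. KCNJ2 made up 27.9% to 54.8% of that sum in corpuscles and 13.1% to 26.9% in skin. KCNJ15 and KCNJ8 together with KCNJ2 gave most of the sum in skin, with mean shares of 41.5%, 28.4% and 18.3%. In corpuscles the shares of KCNJ15 and KCNJ8 were 2.69% and 3.28%, and that of KCNJ5 was 27.2%. Among 63 potassium channel genes, auxiliary subunits included, KCNJ2 ranked 2 by mean FPKM in corpuscles, after KCND2 (24.2 ± 14.3 FPKM), and between 2 and 6 in single libraries. KCNJ5 ranked 5 there by its mean, but between 2 and 29 in single libraries. In skin KCNJ15 ranked 2 and KCNJ8 ranked 5, while KCNJ2 ranked 8.

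**Figure D3:**
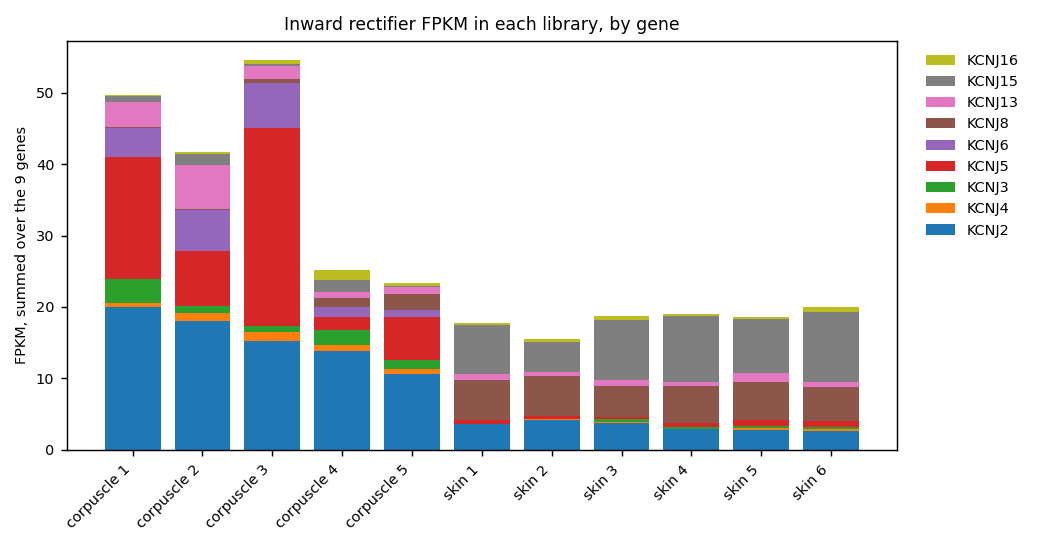
FPKM of the 9 genes stacked in each of the 5 corpuscle libraries and the 6 skin libraries. KCNJ2, KCNJ5 and KCNJ6 fill most of the bars of corpuscles 1 to 3, which reach 41.7 to 54.6 FPKM, and KCNJ15 and KCNJ8 fill most of the skin bars, which reach 15.5 to 19.9 FPKM.

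Corpuscle libraries differed from each other in which channels they held. KCNJ6 and KCNJ13 were lower in both corpuscles 4 and 5 than in any of corpuscles 1 to 3, and so were KCNJ5 and KCNJ2. KCNJ8 was the reverse, with corpuscles 4 and 5 at 56.4% and 100% of its highest corpuscle level and corpuscles 1 to 3 at 5.01% to 21.6%. KCNJ2 had the lowest coefficient of variation among corpuscles, at 69.2% and 53.1% in corpuscles 4 and 5 and at 76.3% to 100% in corpuscles 1 to 3. Several marker sums also set corpuscles 4 and 5 apart from corpuscles 1 to 3. Sensory neuron markers were at 31.6% and 19.2% of their highest corpuscle library in corpuscles 4 and 5, and at 59.6% to 100% in corpuscles 1 to 3. That sum was mostly UCHL1, a ubiquitin hydrolase of neurons, which made up 70.2% to 87.6% of it in corpuscles. Without UCHL1 it was at 58.0% and 40.2% in corpuscles 4 and 5 and at 56.7% to 100% in corpuscles 1 to 3, so that corpuscle 4 no longer stood apart. Merkel markers, a sum mainly of CHGB, KRT20 and CHGA, were at 17.7% and 44.2% in corpuscles 4 and 5, and at 57.5% to 100% in corpuscles 1 to 3. Fibroblast and skeletal muscle sums were higher in corpuscles 4 and 5 than in corpuscles 1 to 3, at 88.6% to 100% for both, against 22.7% to 58.9%. Keratinocyte markers were lower in corpuscles 4 and 5 (77.8% and 45.6%) than in corpuscles 1 to 3 (95.5% to 100%). Leukocyte markers were higher there (98.5% and 100%, against 51.9% to 78.6%), as were melanocyte markers (88.6% and 100%, against 14.8% to 69.4%). The pericyte and smooth muscle sum was not ordered in that way, at 98.8% in corpuscle 1 and 100% in corpuscle 4. Nor was the endothelial sum, at 85.9% in corpuscle 1 and 72.9% in corpuscle 4. The part of these cell types in the levels of the channels was not tested.

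**Figure D4:**
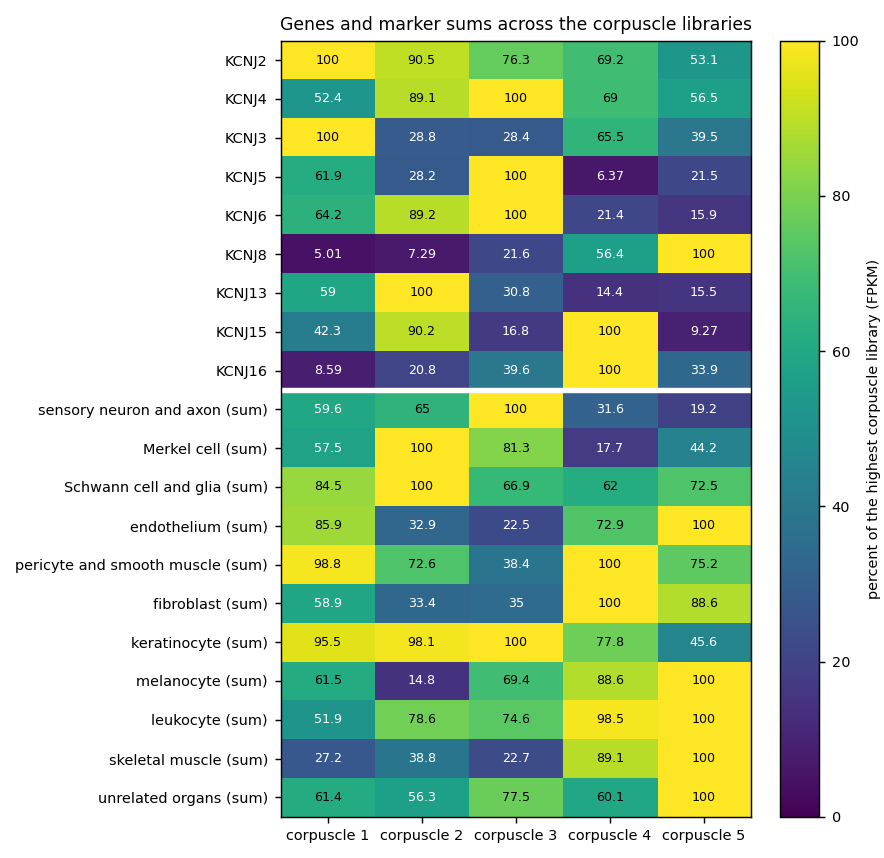
FPKM of the 9 genes (upper rows) and summed FPKM of 11 marker lists (lower rows) in the 5 corpuscle libraries, each as a percent of its highest corpuscle library. Corpuscles 4 and 5 were at 6.37% and 21.5% for KCNJ5 and at 21.4% and 15.9% for KCNJ6, but at 56.4% and 100% for KCNJ8.

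Genes of GIRK signalling were compared next. Of all genes tested 33.0% rose and 23.5% fell, with a median log2 fold change of 0.18. Of the unrelated-organ genes 66.7% rose, but several of these had entered the test through corpuscle libraries alone. Of 14 Gi/o alpha and G beta-gamma genes tested, 10 rose (71.4%) and 1 fell (7.14%), with a median log2 fold change of 1.08. GNG13, a gamma subunit known from taste and retinal bipolar cells, ran from 51.4 to 302 CPM in corpuscles, against 1.26 to 3.18 CPM in skin (log2 fold change 6.17 ± 0.52, edgeR adjusted p = 4.04e-07). GNB3, a beta subunit of cone photoreceptors, rose by 3.56 ± 0.56, to 2.92 ± 2.37 CPM in corpuscles, against 0.232 ± 0.101 CPM in skin. At 1.14 FPKM in corpuscles GNB3 lay under the unrelated-organ median of 1.59 FPKM. GNAI3, an inhibitory alpha subunit, was the gene that fell (log2 fold change -1.30 ± 0.27).

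Receptors that can open GIRK channels gave 14 higher (53.8%, against 33.0% of all genes) and 2 lower (7.69%, against 23.5%) of 26. Their median log2 fold change was 1.56, but their median level was 4.63 CPM in corpuscles and 1.92 CPM in skin. GALR1, a galanin receptor, rose by 5.47 ± 0.68 to 6.74 ± 3.20 CPM in corpuscles. GRM3, a glutamate receptor, had 217 reads in corpuscles and 2 reads in skin, a ratio of 209 in scaled levels with an exact 95% interval of 57.0 to 1730 that covers counting error only. Both GALR1 (0.604 FPKM) and GRM3 (1.10 FPKM) lay under the unrelated-organ median in corpuscles. GABBR1, the ligand-binding subunit of the GABA-B receptor, fell by 2.97 ± 0.28, to 12.7 ± 3.87 CPM in corpuscles, against 99.5 ± 13.6 CPM in skin. ADRA2A, an adrenergic receptor, fell by 2.34 ± 0.43.

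RGS proteins, which speed the closing of GIRK channels, and their partners gave 7 higher and 1 lower of 13. These shares of 53.8% and 7.69% stand against 33.0% and 23.5% of all genes, and the median log2 fold change was 1.32. RGS7, of the neuronal R7 group, rose by 5.40 ± 0.47, to 21.2 ± 12.9 CPM in corpuscles, against 0.489 ± 0.146 CPM in skin, and its 0.675 FPKM in corpuscles lay under the unrelated-organ median. RGS16 rose by 5.98 ± 1.10, but ran from 3.42 to 772 CPM over the corpuscle libraries and overlapped with skin (1.50 to 6.63 CPM). RGS10 fell by 2.93 ± 0.38.

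Genes of PIP2 synthesis and breakdown went both ways, with 5 higher and 6 lower of 18 and a median of -0.48. Among those named by rule, the phospholipase gene PLCB2 (1.45 ± 0.48) and the kinase gene PIP5K1C (0.90 ± 0.32) rose, and the phosphatase gene OCRL (-2.10 ± 0.33) and the phospholipase gene PLCG1 (-1.87 ± 0.27) fell. Scaffold and trafficking genes gave 2 higher and 6 lower of 16, with a median of -0.49. LIN7C rose by 1.24 ± 0.22 and DLG2 by 0.73 ± 0.22, while SNTB2, a syntrophin, fell by 2.99 ± 0.40 and CASK, a partner of Kir2 channels, by 1.31 ± 0.24. The counts for both lists were nearer to those of all genes, of which 33.0% rose and 23.5% fell, than those of the G protein list.

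**Figure D5:**
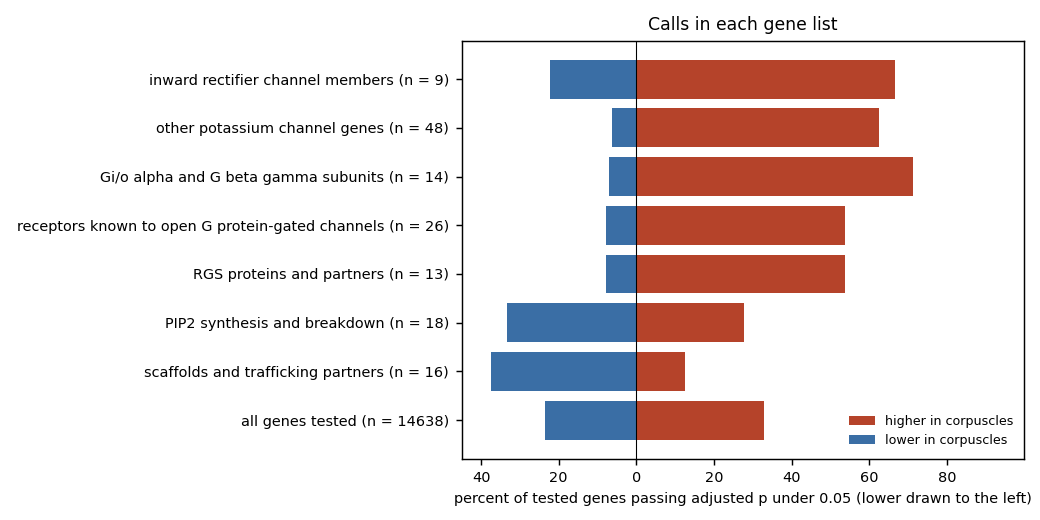
Percent of the tested genes of each list that were called higher (right) or lower (left) in corpuscles by edgeR, with the same for all 14638 genes. The 9 inward rectifier genes stood at 66.7% higher and 22.2% lower, and the Gi/o and beta-gamma list at 71.4% higher and 7.14% lower.

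Among the other potassium channel genes, the rule for named genes gave KCNH4, KCNH1, KCNMB1 and KCNN1. KCNH4 had 123 reads in corpuscles and 0 in skin, so it had entered the test through corpuscle libraries alone. Its pooled level was at least 78.8-fold higher against a floor of 3 reads over the skin group. That value covers counting error only and leaves out the spread between libraries. KCNH1, of the neuronal EAG channel, rose by 5.38 ± 0.56, to 9.78 ± 5.26 CPM in corpuscles, against 0.230 ± 0.187 CPM in skin. KCNH1 (0.751 FPKM) and KCNH4 (0.965 FPKM) lay under the unrelated-organ median in corpuscles. KCNMB1, the beta subunit of calcium-activated channels in smooth muscle, fell by 3.00 ± 0.53, and KCNN1, a calcium-activated channel of small conductance, by 2.83 ± 0.42. All log2 fold changes in these paragraphs are from the same edgeR fit, with SE.

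The authors' deposited table, which gives skin relative to corpuscle, has the same direction and call for each of the 9 genes. In the authors' deposited table the log2 fold change of KCNJ6 is -8.83 and that of KCNJ15 is 3.10.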

How the data were processed

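Bulk RNA sequencing was deposited for 5 corpuscle and 6 skin libraries. The authors deposited raw read counts, as whole numbers, for each gene and library. The submitters' processing notes name R 4.2.1, edgeR 3.38.4, Subread 2.0.1, featureCounts, STAR 2.7.7a, Trimmomatic 0.39 and CASAVA 1.8.2. Genome build, annotation and strand setting are not given in the sources used here, and without strand, reads of overlapping genes cannot be told apart. The deposited normalized counts are a signal, each the raw count over a single factor of its library. The deposited FPKM are that signal relative to gene length. The authors' deposited table also gives a log2 fold change with its p-value.

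A robust quasi-likelihood model was fitted to the counts in R 4.3.3 with edgeR 4.0.16, after filterByExpr and TMM scaling. Tests were two-sided, adjusted by Benjamini-Hochberg over 14638 genes, with a threshold of 0.05. Log2 fold changes are corpuscle minus skin, and SE is the fold change over the root of F. Total counts, floors and SD carry the precision. The fit was tested on simulated data. There it called 63 of 97 genes changed by a log2 of 2 and 4 of 98 changed by 1, and 3 of 14321 unchanged genes. A gene that did not pass may therefore still differ. In the simulation far fewer genes changed than the 56.4% called in the data, and each gene had the same dispersion in both tissues. Its rates need not hold for the data. Alternatives used other scalings, filters, DESeq2 1.42.0, limma-voom (limma 3.58.1), thinning, a replicate block, and fits without single or paired libraries. Those for the 4 companion genes were added after seeing the data. Replicates differed by more than sampling noise (lowest chi-square per degree of freedom 11.6).

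The 9 genes, lists and alternatives were chosen with earlier results of these data known. Named genes are the 9 genes, all genes of lists with 7 or fewer names, the 2 called genes of largest fold in each direction in longer lists (at least 1 CPM in the higher group), the 3 closest profiles per gene (centred log2 CPM, prior count 2) and neighbours on the chromosome; GNAI3 and RGS10 were the only ones called lower in their lists. Other genes, such as markers, were named after their values were seen. Of 4214 locus identifiers 603 gained a symbol from the RefSeq gene table of the Pekin duck (the IASCAAS telomere-to-telomere assembly), used for names and neighbours only; neighbours known by a locus identifier alone are not named. Figures were drawn with matplotlib 3.10.9.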

Additional observations from a re-analysis of the deposited data

How the results depend on the processing

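The counts of 6 inward rectifier genes higher and 2 lower were unchanged when any single library was left out (6 to 6 higher and 2 to 2 lower) and with RLE factors, upper-quartile factors, library totals, both other filters, DESeq2, limma-voom and the 20 most abundant genes left out. Thinning to the smallest library gave 4 higher, because KCNJ3 and KCNJ13 no longer passed the filter. With a replicate block 5 rose and 2 fell, KCNJ13 being lost (1.44, edgeR adjusted p = 0.0818). The shares of all genes called were not counted for the other filters, DESeq2, limma-voom, thinning, the replicate block or single libraries left out. Replicate numbers do not pair the libraries by their labels, correlations of same-numbered libraries ran from -0.178 to 0.182, and 0 of 5 corpuscles correlated best with the skin library of their number. In the negative-score subset (corpuscles 4 and 5, skin 5 and 6) edgeR called 4 higher and 0 lower, against 24.5% and 9.82% of all genes, with 1 lower at an unadjusted p under 0.05; no other tool was run there, and there were fewer libraries. KCNJ16 turned sign without corpuscle 4 (-0.20, in a range of -0.20 to 0.69 over single libraries left out), without corpuscles 4 and 5 (-0.37) and within corpuscles 1 to 3 and skin 1 to 4 (-0.23), and KCNJ11 in the negative-score subset (0.305); the cause was not tested. KCNJ2, KCNJ4 and KCNJ6 passed under all 24 alternatives and KCNJ3 under the 23 in which it was tested. Upper-quartile factors moved the median log2 fold change of all genes by 0.148. At these depths differences near 3 reads per library are not detectable.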
